A study of Mus musculus with 12 samples.

Results

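The mRNAs that encode the translation initiation factors were followed in mouse oocytes that were wild type (WT) or lacked the RNA-binding proteins ZAR1 and ZAR2 (Zar1/2-null). The genes were chosen by symbol, as every row that begins with Eif and a digit from 1 to 6. Rows of other protein families that share the prefix (Eif2c1, Eif2c2, Eif2c3 and Eif2c4, which are Argonaute genes, Eif4enif1, a transporter and repressor of eIF4E, and Eif4e1b, an oocyte eIF4E-like repressor) were left out. This gave 52 of the 23230 genes in the table. Of these, 50 reached 1 FPKM in at least 1 library and were tested. Eif2s3y, the Y-linked copy of the eIF2 gamma gene, was listed at 0 in every library, and Eif2ak2 (PKR, the double-stranded RNA kinase of eIF2) was under 1 FPKM in every library.

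Each of the 6 groups was a genotype at a stage, with 2 libraries of 10 pooled oocytes from females of the C57BL6/ICR hybrid strain. Growing oocytes came from 13.5-day-old females by the labels, and the study's methods give a younger age. Fully grown oocytes with an intact germinal vesicle (GV) were taken at 21 days of age and 44 h after PMSG, and ovulated oocytes, labelled MII (metaphase II), 16 h after hCG. The null females carried Zar1 and Zar2 alleles made by CRISPR/Cas9, which are deleted in every tissue, so that the growing, GV and MII oocytes had all developed without both proteins. The name MII is that of the labels. The study describes ovulated null oocytes as often without a first polar body and held in meiosis I. In these libraries the genotype and the meiotic stage therefore cannot be told apart at MII. In a separate assay the study held WT oocytes in meiosis I with nocodazole and found the decay of selected mRNAs unaffected. Whether this holds for the members was not tested here. Oocytes of a library were pooled, and nothing in the labels says that the libraries of a group came from separate females. The p-values therefore measure the spread between libraries, which may be technical.

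Initiation of translation assembles a ribosome on the start codon of an mRNA. eIF2 carries the initiator tRNA, eIF2B recharges eIF2 with GTP, eIF3 together with eIF1, eIF1A and eIF5 binds the small ribosomal subunit, and eIF4F (the cap-binding eIF4E, the scaffold eIF4G and the helicase eIF4A) recruits the mRNA. Oocytes store many of their mRNAs during growth, stop transcribing when fully grown, and then mature to MII on stored mRNA alone, of which part is translated after its poly(A) tail is lengthened and a large part is degraded. The levels below are of mRNA with a poly(A) tail, and neither protein nor translation was measured in these libraries. In separate assays the study measured selected proteins and overall protein synthesis, and it reports the latter as lower in null oocytes.

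The labels were first held against the targeted genes and against oocyte markers. Zar2, which the table lists as Zar1l, lay between 504 and 644 FPKM in the 4 WT libraries of growing and GV oocytes and between 13.2 and 20.9 FPKM in the 4 null ones. Zar1 was still read in the null libraries (407 and 460 FPKM against 603 and 725 FPKM in growing oocytes). The study describes its null allele as a small deletion with an early stop codon near the start of translation. Most of the mRNA sequence is thus left to be read, and the level of Zar1 does not check the label. All 10 oocyte marker genes on a list of such markers were above 1 FPKM in every group, and the summed level of 18 granulosa and cumulus markers stayed between 5.22 and 34.2 FPKM. The deposited FPKM values had been multiplied by a factor from the ERCC spike-in, which was 1 in WT growing oocytes and fell to 0.225 and 0.228 in the WT MII and to 0.283 and 0.252 in the null MII libraries. This scaling expresses each mRNA per oocyte pool rather than per unit of RNA. Fewer oocytes in a tube and less RNA per oocyte cannot be told apart in such values.

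Before maturation, initiation factor mRNAs were abundant and unequal. In WT growing oocytes their median lay at the 82.0 and 83.5 percentiles of the kept genes, and together they made up 0.928% and 0.956% of all FPKM. The highest mean was that of Eif1ax, the X-linked gene of eIF1A, with 609 and 580 FPKM in the replicate libraries. It was followed by Eif1b, a close relative of the start codon selection factor eIF1, with 498 and 520 FPKM, and by Eif5a, whose hypusine-modified protein helps ribosomes past difficult peptide bonds, with 332 and 356 FPKM. The first 2 places were separated from each other and from the third by gaps wider than the difference between the replicate libraries of each gene. From the third place on the libraries overlapped, from Eif5a to Eif3m (333 and 306 FPKM) and from there through Eif3k (310 and 323 FPKM) to Eif2s2 (310 and 311 FPKM).

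Within one factor the subunits were not equimolar as mRNA. For eIF2, the beta subunit gene Eif2s2 stood 3.96-fold and 4.74-fold above the alpha subunit gene Eif2s1 (78.3 and 65.5 FPKM) in WT growing oocytes. For eIF2B, Eif2b1 (alpha, 242 and 240 FPKM) was the highest and Eif2b5 (epsilon, the catalytic subunit, 3.71 and 3.29 FPKM) the lowest. Within eIF4F, the cap-binding Eif4e had 276 and 242 FPKM and the helicase Eif4a1 255 and 245 FPKM, while the scaffold gene Eif4g1 had 6.09 and 5.38 FPKM. The scaffold relatives Eif4g2 (46.5 and 46.8 FPKM) and Eif4g3 (11.68 and 11.97 FPKM) were higher than Eif4g1. The genes of the eIF4E-binding repressors were low, with means of 1.83 FPKM for Eif4ebp1, 1.92 FPKM for Eif4ebp2 and 3.46 FPKM for Eif4ebp3.

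**Figure D1:**
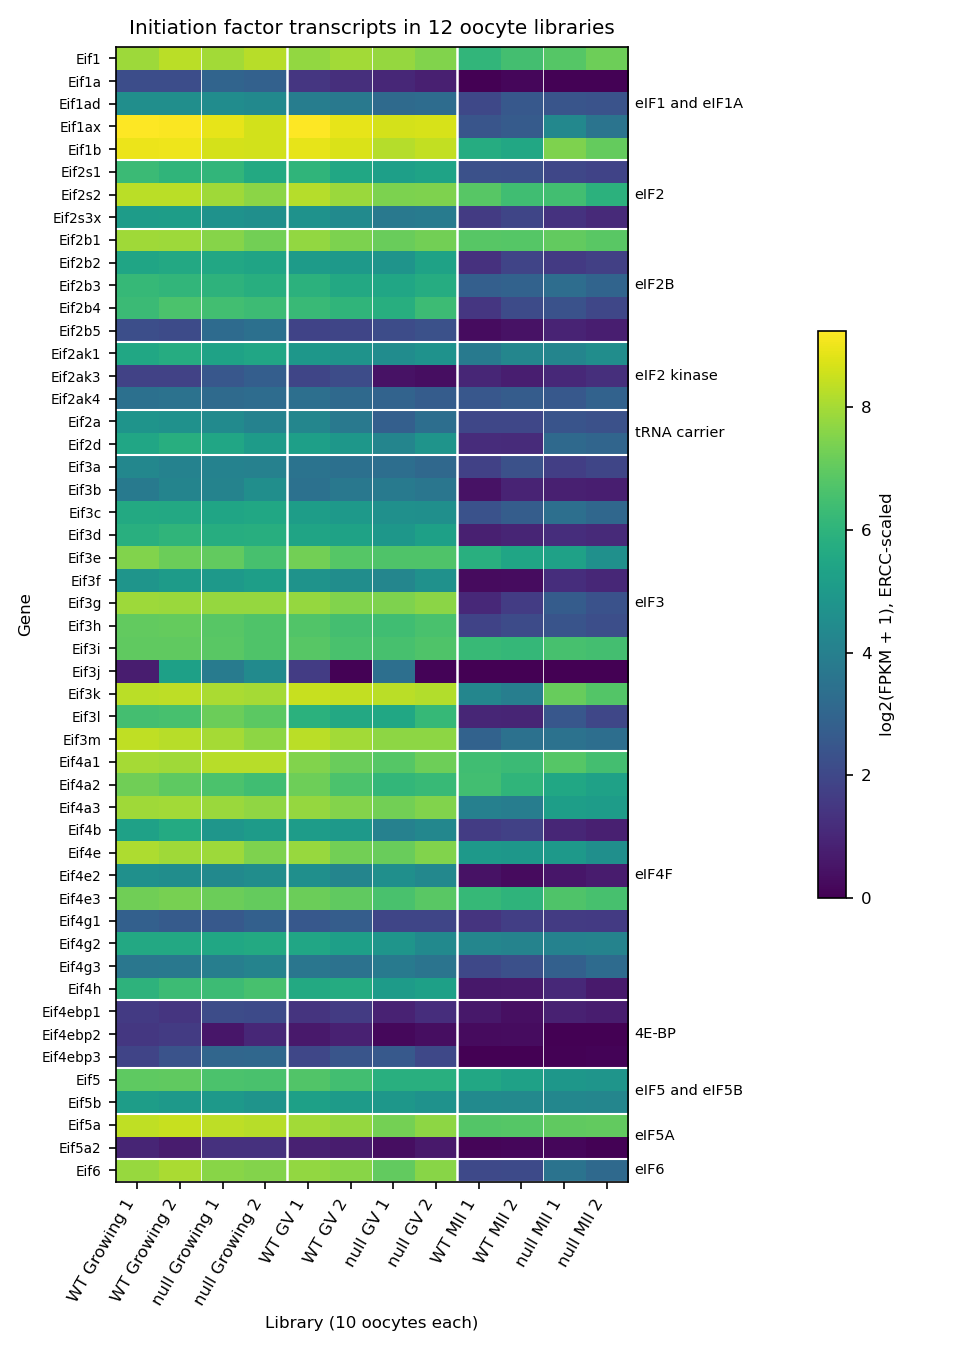
Colour shows the level of each of the 50 tested initiation factor genes (rows, grouped by factor) in each of the 12 libraries (columns) as log2(FPKM + 1) of the ERCC-scaled values. White lines separate groups and factors; the MII columns on the right are darker in almost every row, and Eif3k, Eif1b and Eif2d are lighter in the null than in the WT MII columns.

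Some rows need care because reads were kept where they mapped to 1 place. Eif3j, which has a near-identical second copy in the mouse genome, was read at 0.681 and 37.0 FPKM in the replicate libraries of WT growing oocytes and at 2.11 and 0.0276 FPKM in those of WT GV oocytes. Its values vary more between replicates than between groups, and it is left out of the sums over eIF3 below. Eif1a and Eif1ax encode nearly the same protein, as do Eif1 and Eif1b and the helicase genes Eif4a1 and Eif4a2, so that reads from shared stretches may be missing from both members of a pair.

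From growing to GV oocytes in WT, the set shifted downwards with the rest of the table. The limma test on log2(FPKM + 1), with Benjamini-Hochberg adjustment over 11502 genes and a threshold of 0.05, called 12 members lower and 0 higher, against 28.7% of all tested genes lower and 2.77% higher. The median difference of the members was -0.30 on the log2 scale and that of all genes -0.29. The 12 included 4 of the eIF3 genes (Eif3a, Eif3c, Eif3d and Eif3l), Eif4a1, Eif5a and Eif1a, the autosomal gene of eIF1A. Eif1a went from 3.593 and 3.496 FPKM to 1.74 and 1.36 FPKM (log2 difference -0.84, SE 0.13, limma adjusted p = 0.0019). Eif1ax, by contrast, had 596 and 479 FPKM in GV oocytes, which overlapped its growing libraries. The 12 calls rest on few libraries and on the scaling, since they became 2 without WT GV replicate 2, 3 without WT growing replicate 2, 6 without WT growing replicate 1, and 0 on FPKM without the ERCC factor.

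The comparison of null with WT growing oocytes asks whether the store was already changed during growth. Here 6 members were higher and 4 lower, against 10.6% and 24.4% of all tested genes, and the median difference was -0.16 both for the members and for all genes. No member passed a 3-fold difference of group means in either direction (0.982% of all genes did so upwards and 3.54% downwards, with means under 1 FPKM set to 1).

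All 6 members that were higher in null growing oocytes were weakly expressed, under 10 FPKM in every library. Eif2b5 had 3.71 and 3.29 FPKM in WT and 8.34 and 9.74 FPKM in null oocytes (log2 difference 1.16, SE 0.13, limma adjusted p = 0.00011). Eif2ak3, the gene of PERK, the eIF2 kinase of the endoplasmic reticulum, had 2.57 and 2.54 FPKM in WT and 4.77 and 5.82 FPKM in null oocytes. Both genes were higher in each null library than in each WT library.

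Eif1a had 3.593 and 3.496 FPKM in WT and 6.88 and 6.35 FPKM in null growing oocytes. The repressor gene Eif4ebp1 had 1.95 and 1.71 FPKM against 3.41 and 3.17 FPKM. Eif4ebp3 and Eif5a2, a little expressed relative of Eif5a, completed the group. Of the 6, all but Eif5a2 were called higher both on FPKM without the ERCC factor and after median scaling (5 genes).

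The 4 that were lower were Eif4b, which stimulates the helicase, Eif2s3x, the X-linked gene of eIF2 gamma, Eif2b1 and Eif4ebp2. Eif4b had 38.7 and 48.9 FPKM in WT and 28.1 and 33.2 FPKM in null growing oocytes (1.43-fold, limma adjusted p = 0.033). Eif2s3x had 33.8 and 34.4 FPKM against 25.2 and 23.1 FPKM (1.41-fold, limma adjusted p = 0.037). None of these libraries overlapped between genotypes. The genes named for the largest differences above 10 FPKM, here and below, were taken only where this held, so it is no further support. The 4 calls became 0 without the ERCC factor and after median scaling, 7 with the replicate number as a block, and 1 to 2 when a WT or null growing library was left out. Markers of other cells also differed between the growing libraries. The summed level of 5 epithelial markers was 91.3 to 108 FPKM in null and 32.3 to 33.8 FPKM in WT (2 of 5 above 1 FPKM in each, Krt18 at 0 in null), and that of 7 immune markers was 20.9 to 24.2 FPKM in WT and 3.65 to 4.83 FPKM in null (1 and 2 of 7 above 1 FPKM), with Ptprc, Tyrobp and C1qa at 0 in both. Most of each higher sum came from 1 gene, Krt8 in null (mean 80.4 FPKM) and C1qb in WT (mean 21.7 FPKM). The part of these markers in the calls was not tested.

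In GV oocytes the null libraries held less of many initiation factor mRNAs. Of the 50 genes, 16 were lower and 0 higher, against 40.6% of all tested genes lower and 2.83% higher, and the median difference was -0.36 for the members and -0.38 for all genes. At an unadjusted p under 0.05, 23 were lower and 1 higher. The calls were spread over eIF4F with its cofactors and relatives (5 of 11 genes), the eIF2 subunits (2 of 3), the eIF2 kinases (2 of 3), the repressors (2 of 3) and eIF1 with eIF1A (3 of 5). The 5 were Eif4a2, Eif4g1, the cofactor genes Eif4b and Eif4h, and the scaffold relative Eif4g2. None of the 13 eIF3 genes and none of the 5 eIF2B genes was called on the deposited values. After median scaling Eif3h, Eif3i, Eif3l and Eif2b5 were called higher in null (log2 differences 0.42, 0.44, 0.64 and 0.69). Eif3i and Eif2b5 were also called higher without the ERCC factor (0.35 and 0.74).

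Among the members above 10 FPKM, the largest difference was that of Eif2a, whose protein can deliver initiator tRNA independently of eIF2. It had 17.98 and 12.3 FPKM in WT and 5.93 and 9.23 FPKM in null GV oocytes (2.00-fold, limma adjusted p = 0.0059), and this call was lost without WT GV replicate 1 or null GV replicate 1. Eif4b had 33.4 and 31.3 FPKM against 15.7 and 18.3 FPKM (1.90-fold, limma adjusted p = 0.0014). In both genes each null library lay below each WT library, as the naming rule required.

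The next were Eif2s3x (25.2 and 20.5 FPKM in WT, 12.5 and 13.5 FPKM in null), Eif5, the GTPase-activating partner of eIF2 (107 and 85.5 FPKM in WT, 56.4 and 56.5 FPKM in null), and Eif4g2, a scaffold that lacks the eIF4E-binding part (43.8 and 36.7 FPKM in WT, 27.3 and 20.2 FPKM in null). Their folds were 1.76, 1.70 and 1.70, and each null value was below each WT value in all 3, as the naming rule required. Eif4g1 went the same way, with 4.83 and 5.67 FPKM in WT and 2.79 and 2.81 FPKM in null (1.88-fold, limma adjusted p = 0.0039). Eif4e (224 and 154 FPKM in WT, 141 and 179 FPKM in null), Eif4a1 (180 and 141 FPKM, 111 and 148 FPKM) and Eif2s1 (65.4 and 44.1 FPKM, 36.7 and 40.7 FPKM) were not called, and the libraries of Eif4e and Eif4a1 overlapped.

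Eif2ak3 was the member that changed most at this stage. It had 2.80 and 3.45 FPKM in WT GV oocytes and 0.367 and 0.284 FPKM in null GV oocytes (log2 difference -1.63, SE 0.14, limma adjusted p = 2.18e-05). It was the 1 gene of the set past 3-fold downwards at GV, where 4.2% of all genes were, and the 1 gene called lower under all 3 scalings. Past 3-fold upwards was Eif3j (0.461% of all genes), whose 4 libraries overlapped. The genotype difference of Eif2ak3 thus had opposite signs in growing and GV oocytes, and the test of that change (the genotype by stage interaction) gave -2.45 on the log2 scale (SE in the same units 0.20, limma adjusted p = 0.00011). This interaction called 5 members lower and 0 higher (11.3% and 2.58% of all genes), namely Eif2ak3, Eif1a, Eif4ebp1, Eif2b5 and Eif5a2, all under 10 FPKM. Eif2ak3 and Eif1a were called under all 3 scalings.

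The other GV calls changed with the scaling and with single libraries. The 16 lower calls became 1 without the ERCC factor, with 2 members higher, and 1 after median scaling, with 5 higher. They became 8 without WT GV replicate 1 and 8 without null GV replicate 1. The factor that scales these libraries was 0.836 and 0.697 in WT and 0.533 and 0.583 in null GV oocytes.

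The step from GV to MII removed much of the set in WT oocytes. All members but Eif3j, 49 of 50, were lower in MII oocytes and 0 higher, against 93.4% and 0.104% of all tested genes. Their median difference was -1.80 on the log2 scale, against -1.28 for all genes. By fold of group means, 18 fell more than 10-fold, where 15.7% of all genes did. With means under 1 FPKM set to 1, only genes above 10 FPKM in WT GV oocytes could pass. Among those, 18 of 40 members and 1809 of 4914 genes passed. Summed over the members, the level went from 5327 and 4478 FPKM to 1058 and 993 FPKM.

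The losses divided the factors internally. In the eIF1 and eIF1A group, Eif1ax had 596 and 479 FPKM in WT GV oocytes and 4.46 and 5.23 FPKM in WT MII oocytes, a 111-fold fall. Eif1b fell from 475 and 418 FPKM to 52.2 and 46.0 FPKM (9.09-fold) and Eif1 from 217 and 252 FPKM to 67.3 and 87.8 FPKM (3.02-fold). The ranks changed with this, and Eif1ax went from rank 1 at GV to rank 22 of 52 at MII.

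For eIF2, Eif2s1 fell from 65.4 and 44.1 FPKM to 3.88 and 3.74 FPKM (14.3-fold) and Eif2s2 from 294 and 229 FPKM to 114 and 83.3 FPKM (2.65-fold). For eIF2B, Eif2b4 (delta) fell 27.9-fold and Eif2b2 (beta) 15.03-fold, but Eif2b1 had 216 and 169 FPKM at GV and still 115 and 112 FPKM at MII (1.70-fold). Eif2b1 was the member with the highest mean in WT MII oocytes, before Eif5a (109 and 111 FPKM). The ratio of Eif2b1 to Eif2b4, which no scaling of a library changes, was 2.81 and 2.56 at GV and 64.6 and 33.5 at MII.

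Among the genes of eIF4F and its relatives, the nearly identical helicases and the third family member parted. Eif4a1 had 85.3 and 78.8 FPKM and Eif4a2 86.8 and 66.1 FPKM in WT MII oocytes, after 1.96-fold and 1.60-fold falls. Eif4a3, which works in the exon junction complex, fell 13.8-fold, from 222 and 186 FPKM to 15.4 and 14.2 FPKM. Among the cap-binding proteins, Eif4e fell 6.29-fold, from 224 and 154 FPKM to 31.2 and 28.9 FPKM, whereas Eif4e3 fell 1.97-fold, from 144 and 125 FPKM to 72.8 and 63.7 FPKM. The ratio of Eif4e3 to Eif4e rose from 0.641 and 0.811 at GV to 2.33 and 2.21 at MII, with no overlap. Eif4e2, a cap-binding repressor, fell 20.5-fold against the floor of 1 FPKM, with 0.372 and 0.207 FPKM left. Eif6, which keeps the ribosomal subunits apart, fell 64.0-fold and Eif4h, a helicase cofactor, 49.8-fold against the same floor.

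Smaller falls were seen in 2 kinases that phosphorylate eIF2 alpha. Eif2ak1 (HRI, the heme-regulated kinase) had 28.7 and 26.0 FPKM at GV and 12.6 and 17.9 FPKM at MII (1.79-fold), and Eif2ak4 (GCN2, which senses uncharged tRNA) 9.49 and 8.03 FPKM and then 4.69 and 5.46 FPKM (1.73-fold). The GTPase gene Eif5b, whose protein joins the ribosomal subunits, fell 1.76-fold, from 37.2 and 33.2 FPKM to 20.3 and 19.6 FPKM, and Eif5 2.28-fold. The scaffold genes Eif4g1, Eif4g2 and Eif4g3 fell 2.67-fold, 2.32-fold and 3.21-fold. Eif4b fell 14.3-fold, Eif2s3x 9.42-fold and Eif2b3 (eIF2B gamma) 8.75-fold. The 3 eIF4E-binding repressor genes ended under 1 FPKM in every WT MII library, with Eif4ebp3 listed at 0 in both.

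The levels of the eIF3 subunit genes spread apart. Across the 12 subunit genes other than Eif3j, the highest stood 35.8-fold and 35.2-fold above the lowest in the WT GV libraries and at least 73.7-fold and 70.5-fold above it in the WT MII libraries, where the lowest, Eif3f, was set to the floor of 1 FPKM. Eif3i fell 1.47-fold (115 and 96.6 FPKM to 73.7 and 70.5 FPKM) and Eif3e 2.70-fold (153 and 113 FPKM to 56.2 and 42.2 FPKM). Eif3g fell 124-fold, from 222 and 181 FPKM to 1.11 and 2.15 FPKM. The others lay between these, from 3.12-fold for Eif3a and 6.74-fold for Eif3c to 32.7-fold for Eif3h, 34.7-fold for Eif3m and, against the floor, 24.1-fold for Eif3f, 40.3-fold for Eif3d and 53.2-fold for Eif3l. Eif3i, which forms a subcomplex with Eif3b and Eif3g, rose from 7.94% and 7.85% of the summed eIF3 FPKM to 44.1% and 45.4%, although Eif3b fell 11.05-fold against the floor and Eif3g fell as given.

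The MII differences relative to GV include the ERCC factors, and without them 27 members were lower and 11 higher in WT MII oocytes. The 26 that were lower under all 3 scalings include the genes named above as falling more than 6-fold. Of the 49 calls, 11 were called in the opposite direction without the ERCC factor and 14 after median scaling. The 14 were Eif2ak1, Eif2ak4, Eif2b1, Eif2s2, Eif3e, Eif3i, Eif4a1, Eif4a2, Eif4e3, Eif4g1, Eif4g2, Eif5, Eif5a and Eif5b. Their falls thus depend on the scaling.

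The 3′UTRs of these mRNAs were then read, because the cytoplasmic polyadenylation element (CPE), a motif bound by CPEB proteins near the end of many oocyte 3′UTRs, is known to mark mRNAs for tail lengthening in maturation. The sequences are of the transcript with the longest coding part for each gene in GENCODE vM1 on the mm9 build, and TTTTAT and TTTTAAT were searched on the strand of the mRNA. Of the 40 members with a mean over 10 FPKM in WT GV oocytes, the 18 that fell more than 10-fold had a median 3′UTR of 225 bases and the other 22 one of 850 bases. All genes over 10 FPKM showed the same order, with 372 and 926 bases. A motif stood anywhere in the 3′UTR in 38.9% of the 18 and 59.1% of the 22, against 30.6% and 71.5% of all genes split in the same way. Spearman's rho between 3′UTR length and the log2 change was 0.33 over the 40 members and 0.34 over 4609 genes, given as a description across genes of the same libraries, which are not independent replicates.

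A motif within the last 100 bases was found in 7 of the 40 members (17.5%, against 21.5% of all genes), and these 7 are shown with 30 bases around their last motif, in capitals, because they hold both mRNAs that were nearly lost and mRNAs that were kept. The first 4 fell more than 10-fold in WT oocytes and the last 3 did not. These are 22.2% of the 18 and 13.6% of the 22. All genes split in the same way had the opposite order, with 9.85% and 28.0%, and the member shares rest on few genes. A match is a description of the letters, not of a working site. The last 100 bases are those of the chosen transcript, and which 3′ end the oocytes use was not tested. For Eif2d, Eif4e2, Eif4e3 and Eif4g3 the annotated gene runs on well past the window shown.
Eif1ax (chrX:155827819-155827848, plus strand): attcagtggatgTTTTATgctgcacaaata
Eif2d (chr1:133069949-133069978, plus strand): cagactcaTTTTATgcagtggaccccatgg
Eif3m (chr2:104839848-104839877, minus strand): atTTTTATgaaaatgattttgttcgttgag
Eif4e2 (chr1:89131198-89131227, plus strand): ccaagttacatgTTTTATatgttcgcataa
Eif3e (chr15:43081586-43081615, minus strand): ggctatgattaattTTTTATtttgcttgaa
Eif4e3 (chr6:99575209-99575238, minus strand): attttgagaaaaTTTTATttttgaacttta
Eif4g3 (chr4:137762303-137762332, plus strand): aaatattttctgTTTTAATcttttcttttt

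The motif of Eif3e began 16 bases and that of Eif1ax 30 bases before the annotated end of the chosen transcript. The former mRNA fell 2.70-fold and the latter 111-fold. Eif4e3 and Eif4g3, whose motifs began 96 and 70 bases before the end of the chosen transcript, fell 1.97-fold and 3.21-fold. Eif2b1, Eif3i, Eif5a, Eif4a1 and Eif4a2, which were among the members kept best, held no motif in the last 100 bases of the chosen transcript.

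In Zar1/2-null oocytes the fall from GV to MII was smaller for part of the set. There, 39 members were lower and 1 higher, against 68.7% and 0.209% of all tested genes, with a median difference of -1.40 for the members and -0.72 for all genes. By group means 15 fell more than 10-fold (6.66% of all genes), which only genes above 10 FPKM in null GV oocytes could do. These 15 were all among the 18 of the WT, and the 3 past 10-fold in WT and not in null were Eif3k, Eif2d and Eif4a3. The gene that was higher was Eif2ak3, at 0.367 and 0.284 FPKM in null GV and 1.10 and 1.36 FPKM in null MII oocytes.

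The genotypes were compared in their change from GV to MII by the interaction term. It was positive, which means that the mRNA fell less or rose in the null, for 20 members and negative for 0, against 33.9% and 0.643% of all tested genes, and the median was 0.55 for the members and 0.48 for all genes. The largest was that of Eif3k (3.02 on the log2 scale, limma adjusted p = 2.84e-06), followed by Eif2d (2.48), Eif1b (2.12), Eif2ak3 (1.91), Eif1ax (1.79), Eif6 (1.64) and Eif4a3 (1.45). For these 7 and for Eif3f the interaction was called under all 3 scalings, whereas for the other 12 it was not. The 20 calls became 13 without WT MII replicate 1. This term, the changes within each genotype and the comparison at MII below use the same MII libraries and are not independent of each other. None of the 3 tested eIF2 subunit genes and none of the 5 eIF2B genes was called on the deposited values. After median scaling the term of Eif2s3x was called negative (-0.64). The term for Eif2ak3 draws on its low level in null GV oocytes, since its MII levels were 0.969 and 0.702 FPKM in WT against 1.10 and 1.36 FPKM in null and were not called.

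**Figure D2:**
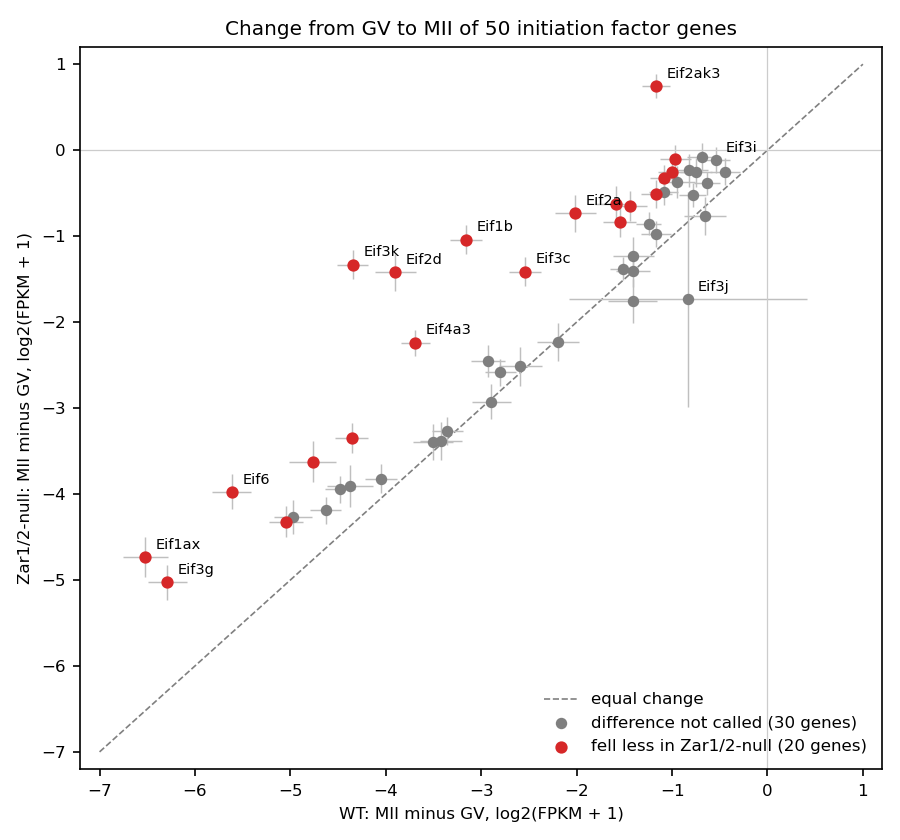
Each point is 1 of the 50 tested genes, with its change from GV to MII in WT oocytes on the x axis and in Zar1/2-null oocytes on the y axis, both as log2(FPKM + 1) differences with SE bars. Most genes lie on or a little above the dashed line of equal change, and Eif3k, Eif2d, Eif1b, Eif2ak3, Eif1ax, Eif6 and Eif4a3 lie farthest above it. The wide bars belong to Eif3j.

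At MII itself, 14 members were higher and 4 lower in the null oocytes, against 21.5% and 10.3% of all tested genes. The median difference was 0.25 for the members and 0.06 for all genes. Past 3-fold, 5 were higher (7.49% of all genes) and 0 lower (1.32%). The 14 included 5 of the 13 eIF3 genes, 3 of the 5 eIF1 and eIF1A genes, Eif2d, Eif2b5 and Eif6. They also included 3 of the 11 genes of eIF4F with its cofactors and relatives (Eif4a3, Eif4e3 and Eif4g3). The summed level of the 10 oocyte markers was also higher in null MII libraries, 4452 to 5101 FPKM against 1286 to 1351 FPKM in WT, and its part in these calls was not tested.

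Eif3k, a small accessory subunit of eIF3, showed the largest difference. It had 359 and 339 FPKM in WT GV oocytes and 317 and 292 FPKM in null GV oocytes, then 18.1 and 14.5 FPKM in WT MII and 135 and 108 FPKM in null MII oocytes. The null MII libraries were 7.43-fold above the WT ones by group means (log2 difference 2.82, SE 0.16, limma adjusted p = 1.51e-07), with adjusted p between 2.67e-08 and 5.36e-05 over 19 alternatives. As a share of the summed eIF3 FPKM, which does not depend on the scaling, Eif3k made up 24.7% and 27.5% at GV in WT, 28.4% and 24.9% at GV in null, 10.8% and 9.31% at MII in WT and 44.0% and 42.6% at MII in null oocytes. The shares overlapped between genotypes at GV and were far apart at MII.

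The other eIF3 genes moved less. Eif3l had 0.985 and 0.964 FPKM in WT and 4.68 and 2.90 FPKM in null MII oocytes, at least 3.79-fold apart against the floor of 1 FPKM. Eif3g had 1.11 and 2.15 FPKM against 5.48 and 4.09 FPKM (2.94-fold). Eif3c and Eif3f were also called higher. Eif3i (73.7 and 70.5 FPKM against 93.7 and 88.1 FPKM) and Eif3m (6.51 and 9.84 FPKM against 10.2 and 9.15 FPKM) were not called, and the libraries of Eif3m overlapped. Eif3e had 56.2 and 42.2 FPKM in WT and 37.9 and 23.8 FPKM in null, and was not called, but it was called lower without the ERCC factor (log2 difference -0.93, limma adjusted p = 0.0029) and after median scaling (-0.91, limma adjusted p = 0.0057).

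**Figure D3:**
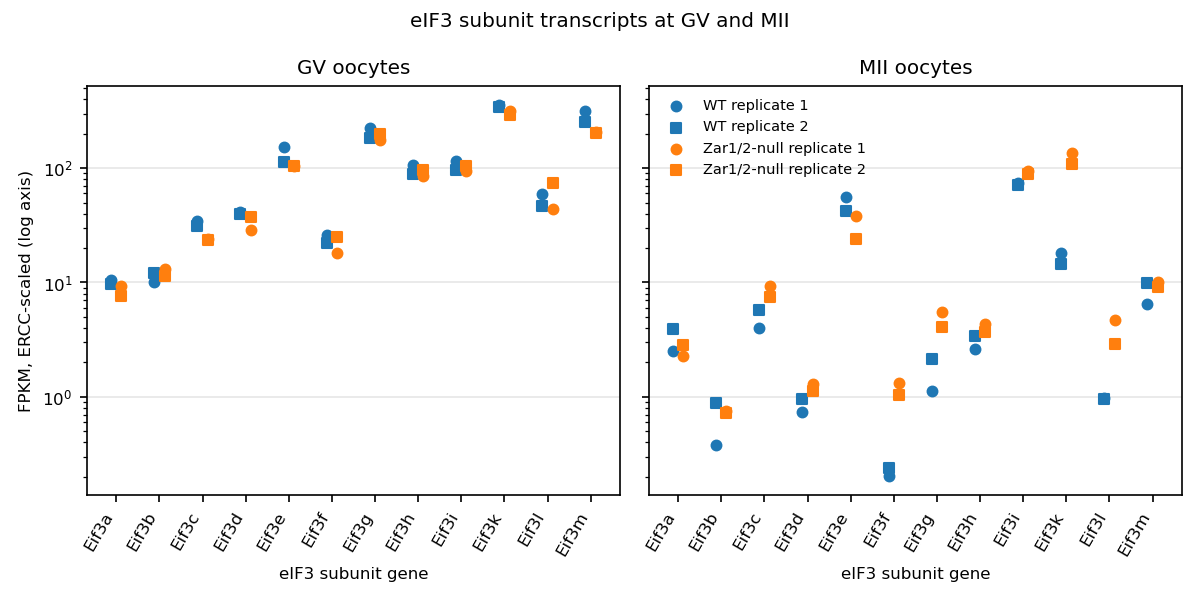
Points are the ERCC-scaled FPKM (log axis) of 12 eIF3 subunit genes in each library of GV (left) and MII (right) oocytes, WT in blue and Zar1/2-null in orange. At GV the genotypes lie close together for every subunit; at MII Eif3k lies at 18.1 and 14.5 FPKM in WT and 135 and 108 FPKM in null oocytes, while Eif3i stays near its GV level in both.

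Of the start codon factors, Eif1b had 52.2 and 46.0 FPKM in WT MII oocytes and 175 and 133 FPKM in null MII oocytes (3.14-fold, limma adjusted p = 1.91e-05). Eif1ax had 4.46 and 5.23 FPKM against 19.1 and 10.7 FPKM (3.07-fold, limma adjusted p = 0.00074). Both were separate between genotypes, as the naming rule required, although Eif1ax in the null oocytes had still fallen 27.3-fold from GV. Eif1 had 67.3 and 87.8 FPKM against 112 and 146 FPKM (1.66-fold, limma adjusted p = 0.022), a call that was lost without the ERCC factor, after median scaling, with no filter on low values, and without WT MII replicate 1 or null MII replicate 2. Eif1a had under 0.2 FPKM in every MII library.

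Of the others, Eif2d, which can place initiator tRNA and also recycles ribosomes, had 1.24 and 1.21 FPKM in WT and 7.85 and 7.02 FPKM in null MII oocytes (6.07-fold). Eif4a3 had 15.4 and 14.2 FPKM against 35.5 and 33.6 FPKM (2.33-fold, limma adjusted p = 0.00012). Eif6 had 3.14 and 3.26 FPKM against 10.4 and 7.95 FPKM (2.87-fold). Every null library was above every WT library in these 3 genes, which for Eif4a3 the naming rule required.

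The 4 genes that were lower in null MII oocytes were Eif4a2, Eif5, Eif4b and Eif2s3x. Eif4a2 had 86.8 and 66.1 FPKM in WT and 44.9 and 38.4 FPKM in null oocytes (1.83-fold, limma adjusted p = 0.011). Eif5 had 46.3 and 38.0 FPKM against 29.1 and 27.3 FPKM (1.49-fold, limma adjusted p = 0.017). Neither overlapped between genotypes, as the naming rule required. All 4 had also been lower in null GV oocytes, where Eif4a2 had 147 and 97.9 FPKM in WT against 68.2 and 74.5 FPKM in null. Eif4a1 went the other way, with 85.3 and 78.8 FPKM against 110 and 88.6 FPKM, and was not called. The ratio of Eif4a1 to Eif4a2 was 0.983 and 1.19 in the WT MII and 2.46 and 2.31 in the null MII libraries, and it was higher in the null libraries at every stage, with 1.67 and 2.01 against 3.11 and 3.55 in growing oocytes and 1.23 and 1.44 against 1.63 and 1.99 in GV oocytes. The 4 lower calls became 1 without null MII replicate 2 and 2 without WT MII replicate 1.

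Other central members were not called at MII on the deposited values. Eif4e had 31.2 and 28.9 FPKM in WT and 31.1 and 23.5 FPKM in null MII oocytes. Eif5a had 109 and 111 FPKM against 127 and 130 FPKM. Eif2s1 had 3.88 and 3.74 FPKM against 2.93 and 2.63 FPKM, and it was called lower without the ERCC factor (log2 difference -0.65, limma adjusted p = 0.0056) and after median scaling (-0.61, limma adjusted p = 0.011). Eif2s2 was likewise called lower under both of these scalings (-0.65 and -0.64), so that with Eif2s3x all 3 tested eIF2 subunit genes were lower there. Eif4g1 had 1.62 and 2.32 FPKM against 2.07 and 2.00 FPKM, and Eif4ebp1 0.507 and 0.312 FPKM against 0.786 and 0.664 FPKM.

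Unlike at the earlier stages, most MII calls did not turn on the scaling. Of the 14 higher calls, 12 were also called under both other scalings (all but Eif1 and Eif4e3), and so were the 4 lower calls. Without the ERCC factor 12 members were higher and 8 lower, and after median scaling 12 and 7. The median difference of all genes at MII was 0.06 with the ERCC factor and -0.003 without it.

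**Figure D4:**
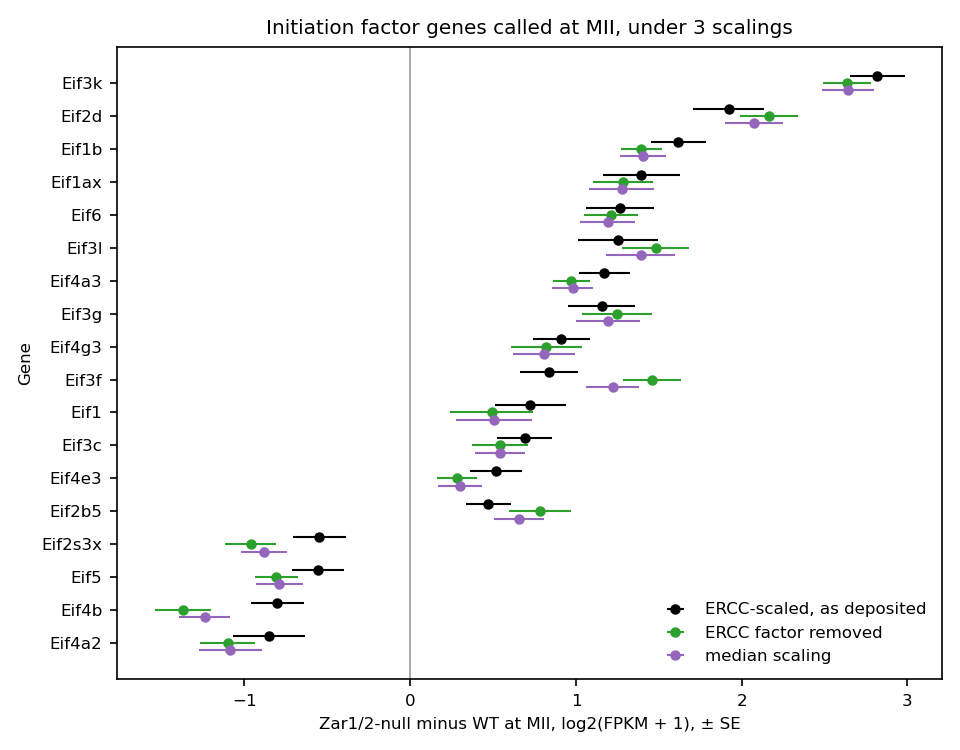
Points are the differences between Zar1/2-null and WT MII oocytes, as log2(FPKM + 1) with SE bars, for the 18 genes called at MII, on the deposited ERCC-scaled values (black), with the ERCC factor removed (green) and after median scaling (purple). Each gene keeps its side of 0 under the 3 scalings, and Eif3k lies at 2.82 on the deposited values.

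The regulators that act on these factors were read from a list of 29 genes, all of which passed the filter on low values. They cover mTORC1 and its S6 kinases, the MNK kinases of eIF4E, initiation helicases and recycling factors, regulators of eIF4A and of the poly(A)-binding protein, and the phosphatase side of the eIF2 response. In growing oocytes 4 were higher and 4 lower in the null, in GV oocytes 0 and 18, and at MII 4 and 3. In the same order, 10.6% and 24.4%, 2.83% and 40.6%, and 21.5% and 10.3% of all tested genes were called. The counts changed with the scaling. Both without the ERCC factor and after median scaling they were 6 and 1 in growing, 1 and 3 in GV and 4 and 8 in MII oocytes.

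Paip2 and Atf4 differed more at MII than any initiation factor gene. Paip2, an inhibitor of the poly(A)-binding protein, had 617 and 472 FPKM in WT GV oocytes and 383 and 408 FPKM in null GV oocytes. At MII it had 4.74 and 4.37 FPKM in WT and 264 and 232 FPKM in null oocytes (log2 difference 5.48, SE 0.17, limma adjusted p = 1.62e-09). Atf4, the transcription factor whose translation rises when eIF2 is phosphorylated, had 3.40 and 3.69 FPKM in WT and 65.7 and 52.1 FPKM in null MII oocytes (log2 difference 3.71, SE 0.22, limma adjusted p = 1.90e-07), after 145 and 122 FPKM in WT and 60.4 and 97.1 FPKM in null GV oocytes. Both were separate between genotypes at MII by more than the spread of the replicates.

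The other higher genes at MII were Ppp1ca, a catalytic subunit of protein phosphatase 1 (4.53 and 5.86 FPKM in WT, 18.4 and 14.6 FPKM in null), and Mknk1, whose call was lost under both other scalings. The lower ones were Paip1, which joins the poly(A)-binding protein to eIF4A (207 and 144 FPKM in WT, 62.9 and 50.9 FPKM in null), the mTOR inhibitor gene Deptor (20.3 and 24.6 FPKM in WT, 9.30 and 8.74 FPKM in null) and Rps6kb1, an S6 kinase. Deptor was lower at all 3 stages, with 52.3 and 59.6 FPKM in WT and 10.1 and 9.20 FPKM in null growing oocytes (log2 difference -2.42, SE 0.23, limma adjusted p = 2.90e-05). Ppp1r15b, the constitutive partner of the eIF2 phosphatase, had 6.11 and 5.37 FPKM in WT and 1.584 and 1.495 FPKM in null GV oocytes (limma adjusted p = 4.83e-05).

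Summed over all 52 genes, the share of total FPKM was 0.923% and 0.931% in WT GV oocytes, 0.908% and 0.956% in null GV oocytes. At MII it was 0.824% and 0.820% in the WT and 0.680% and 0.721% in the null libraries. The share was lower in each MII library than in each GV library, and lower in null than in WT at MII, with no test, because the genes were chosen with results of these libraries known.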

How the data were processed

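Smart-seq2 copies polyadenylated RNA into cDNA, so a changed poly(A) tail can change a value, and the kit does not mark strand. Per the study's methods the authors trimmed the reads, mapped them to mm9 (TopHat2 2.1.1 and Cufflinks 2.2.1 in the submitters' processing notes), kept uniquely mapped reads, and deposited FPKM values after scaling each library by its proportion of ERCC spike-in reads. The factors were recovered from the deposited FPKM values, which return to 6 significant digits once divided out. The table holds no counts, so the depth and counting error behind a single value are unknown.

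The 11502 genes that reached 1 FPKM in any library were tested. Values were taken as log2(FPKM + 1), and all 12 libraries entered a limma fit (version 3.58.1, R 4.3.3) with a coefficient for each group and an intensity trend, with Benjamini-Hochberg adjustment and a threshold of 0.05. The added 1 FPKM understates the change of low genes. Folds are of group means set to at least 1 FPKM. On simulated data, 97% of 200 genes changed 3-fold at MII were recovered among 11502, with 9 false calls. These 200 were drawn from genes above about 10 FPKM in WT MII oocytes. Most members lay below that level there, and recovery at lower levels was not simulated. Named for each genotype comparison are the 5 called members with the largest difference in each direction. They needed a higher group averaging 10 FPKM or more and no overlap between libraries. For each factor up to 4 members with the largest change or level were planned, and more were given for some factors, such as eIF3. The pathway genes and those under 10 FPKM were named after their values were seen. Alternatives tried were FPKM without the ERCC factor, median scaling, a pseudocount or floor of 0.1 FPKM, other filters, only the groups compared, a replicate block and leaving out each library. Libraries of 2 groups of 2 separate fully, in either direction, with a probability of 0.333 if their order is random. The members and lists were chosen with earlier results of these data known. 3′UTRs came from GENCODE vM1 on mm9, in which 51 of the 52 members had one of at least 30 bases.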

Additional observations from a re-analysis of the deposited data

Results flagged for a closer look

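These genes were flagged because the genotype difference changed between stages by a test of that change (limma interaction, Benjamini-Hochberg adjusted over all 11502 genes), and each value is on the log2(FPKM + 1) scale. No explanation was tested.

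Between GV and MII, 20 initiation factor genes fell less, or rose, in Zar1/2-null oocytes, against 33.9% of all tested genes, and the median was 0.55 for the members and 0.48 for all genes. Of the 20, 8 were called under all 3 scalings (Eif3k, Eif2d, Eif1b, Eif2ak3, Eif1ax, Eif6, Eif4a3 and Eif3f). For 3 other members without the ERCC factor and 4 after median scaling the difference was called negative. These fell more, or rose less or not at all, in the null. The difference was 3.02 for Eif3k, 2.48 for Eif2d, 2.12 for Eif1b, 1.91 for Eif2ak3, 1.79 for Eif1ax, 1.64 for Eif6 and 1.45 for Eif4a3. It was 1.28 for Eif2a, 1.26 for Eif3g, 1.15 for Eif3l, 1.13 for Eif3c, 1.01 for Eif3f and 0.96 for Eif1. It was 0.87 for Eif4e3, 0.79 for Eif4g3, 0.76 for Eif4g1, 0.75 for Eif4ebp1, 0.72 for Eif4h, 0.71 for Eif1ad and 0.66 for Eif4g2. Of these, Eif1ad and Eif4g2 kept the call in 2 of the 12 fits that leave out 1 library, Eif4h in 4, Eif1 and Eif3l in 7, Eif4g1 and Eif4g3 in 8 and Eif4ebp1 in 9, and the others in all 12.

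Between growing and GV oocytes, the genotype difference became more negative for Eif2ak3 (-2.45), Eif1a (-1.17), Eif4ebp1 (-1.06), Eif2b5 (-0.82) and Eif5a2 (-0.77), against 11.3% of all tested genes. Eif2ak3 and Eif1a were called under all 3 scalings. All of them were under 10 FPKM in every library, and Eif2ak3, Eif1a and Eif4ebp1 kept the call in all 12 fits that leave out 1 library.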

How the results depend on the processing

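Scaling moved the counts of called members most. Without the ERCC factor, the counts higher and lower in null oocytes were 9 and 0 in growing, 2 and 1 in GV and 12 and 8 in MII oocytes. In WT oocytes they were 0 and 0 from growing to GV and 11 and 27 from GV to MII, and in null oocytes 10 and 26 from GV to MII. The interaction gave 9 and 3 from GV to MII and 0 and 2 from growing to GV. With median scaling (48 members tested) the counts in the same order were 9 and 0, 5 and 1, 12 and 7, 0 and 0, 14 and 26, 15 and 22, 8 and 4, and 0 and 2. The median difference of the members turned to 0.120, 0.0782 and 0.0626 without the ERCC factor and to 0.123, 0.180 and 0.0459 with median scaling in null against WT growing, null against WT GV and WT GV against growing oocytes. It turned to -0.0308 and -0.0837 (in that order of scaling) for the GV to MII interaction and to 0.0577 for the growing to GV interaction with median scaling. The 10-fold fall was passed by 9 and 7 members in WT and null oocytes without the factor and by 8 and 5 with median scaling. Past 3-fold, 1 member was higher in growing and 1 lower in MII oocytes under each of these scalings, and with median scaling 3 were higher at MII and 0 lower at GV. A floor of 0.1 FPKM put 2 below 3-fold at GV.

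A pseudocount of 0.1 FPKM left 1 lower member in growing oocytes and 3 in the growing to GV interaction. A mean of at least 5 FPKM left 0 higher and 2 lower in growing oocytes, 0 higher in the null from GV to MII, and 0 in the growing to GV interaction. With only the groups compared, 9 were lower in growing and 9 in GV oocytes, and 3 in that interaction. Over the fits that leave out 1 library, the lower counts ranged from 1 to 5 in growing, 8 to 16 in GV and 1 to 4 in MII oocytes and 2 to 13 from growing to GV in WT. The GV to MII interaction ranged from 13 to 19 and the growing to GV interaction from 3 to 6. The 15 differences of the genes named by the rule kept their direction under every alternative run, and Eif3k, Eif1b, Eif1ax and Eif4a3 at MII also kept their calls.

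The deposited scaling ties the replicate numbers, since each WT growing library has a factor of 1 and serves as the reference of the libraries with its number. In their values the libraries were not clearly paired (correlation of replicate deviations from -0.117 to 0.163, above 0 in 13 and above 0.1 in 4 of 15 pairs of groups). With the replicate block, 7 members were lower in growing oocytes, and the other counts moved by less than 1.5 times. The block with the numbers of the null GV libraries crossed, chosen after seeing the data as were the alternatives to the 10-fold rule, gave 0 higher and 22 lower at GV.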
